A study of Mus musculus with 12 samples.

Results

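The cyclin-dependent kinase (CDK) inhibitor genes of the INK4 and CIP/KIP families were followed across all groups of the study. They were taken by gene name from the deposited count table: Cdkn2a, Cdkn2b, Cdkn2c and Cdkn2d of the INK4 family, and Cdkn1a, Cdkn1b and Cdkn1c of the CIP/KIP family. All 7 were found among the table's 31053 gene rows. Poly(A) RNA had been sequenced from freshly isolated hepatocytes of 12 C57BL/6J mice aged 3 months, in 4 groups of 3. Every mouse had received an AAV8 vector with eGFP behind the TBG promoter, which is active in hepatocytes. In GFP mice the vector was AAV8-TBG-eGFP, and in P16 mice it was AAV8-TBG-eGFP-P16. Cells came from each arm before surgery (0 h) or 48 h after 70% partial hepatectomy, which was done 1 week after the injection. The control mice thus carried AAV8 and eGFP as well, and no group without a vector was analysed. The purity stated in the labels' protocols was judged by light microscopy, and the sex was not given in the sources used here.

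INK4 proteins bind CDK4 and CDK6 and keep them from pairing with D cyclins, which holds the retinoblastoma protein in its growth-restraining state. CIP/KIP proteins bind whole cyclin-CDK complexes and chiefly block CDK2, and they can also help cyclin D assemble with CDK4. In the liver, p21 (Cdkn1a) and p27 (Cdkn1b) are known as brakes on the entry of hepatocytes into the cell cycle after partial hepatectomy. Reads that cover a transcript of Cdkn2a can come from the mouse gene or from the P16 vector.

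The libraries held 14617049 to 25409451 reads in genes. Levels are given as reads per 1000000 reads in genes (CPM) after TMM scaling of library sizes, and per kilobase of exon (RPKM) where genes are compared with each other. Changes are log2 fold changes with a standard error (SE), and their p-values come from edgeR's quasi-likelihood test, adjusted over the 12257 genes that passed a filter on low counts. The replicates are separate mice. All 8 hepatocyte markers were present, with a summed 66633 to 100142 CPM per library, while 13 macrophage markers summed to 32.0 to 216 CPM and 10 sinusoidal endothelial markers to 44.5 to 134 CPM. Replicate 2 of the GFP mice at 0 h stood apart, with Saa1, an acute phase gene, at 6409 CPM, where replicates 1 and 3 were at 71.6 and 445 CPM and the resting P16 libraries at 33.8 to 99.1 CPM. At 48 h, replicate 2 of the P16 mice was the highest for Saa1, with 10213 CPM against 1949 to 4008 CPM in the other libraries. Member results that rest on either library are given with and without it. The calls of other named genes come from the fit of all 12 libraries only and were not checked in this way.

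Of the 7 members, 6 passed the low-count filter. After hepatectomy, edgeR called 3 of these 6 in GFP mice, which were Cdkn2c, Cdkn2d and Cdkn1b, and all 3 were higher at 48 h, where 17.2% of all tested genes were called higher and 33.6% in either direction. It also called 3 of 6 in P16 mice, which were Cdkn2c, Cdkn2d and Cdkn1a, again all higher, where 19.6% of genes were called higher and 38.6% in either direction. Between the arms, edgeR called none of the 6 at 0 h, where 0.22% of genes were called. At an unadjusted p under 0.05 it had 2 members there, beside 1652 of all 12257 tested genes. DESeq2 called 1 member at 0 h (Cdkn2a) and limma-voom 0. At 48 h edgeR called Cdkn2a alone, whose reads the P16 vector can supply, against 2.28% of all genes. The median log2 fold change of the 5 without Cdkn2a, whose fitted change in GFP mice is set by the prior count, was 1.49 in GFP mice and 1.81 in P16 mice between the times, with -0.01 and 0.00 over all genes. No member fell in any of these comparisons.

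**Figure D1:**
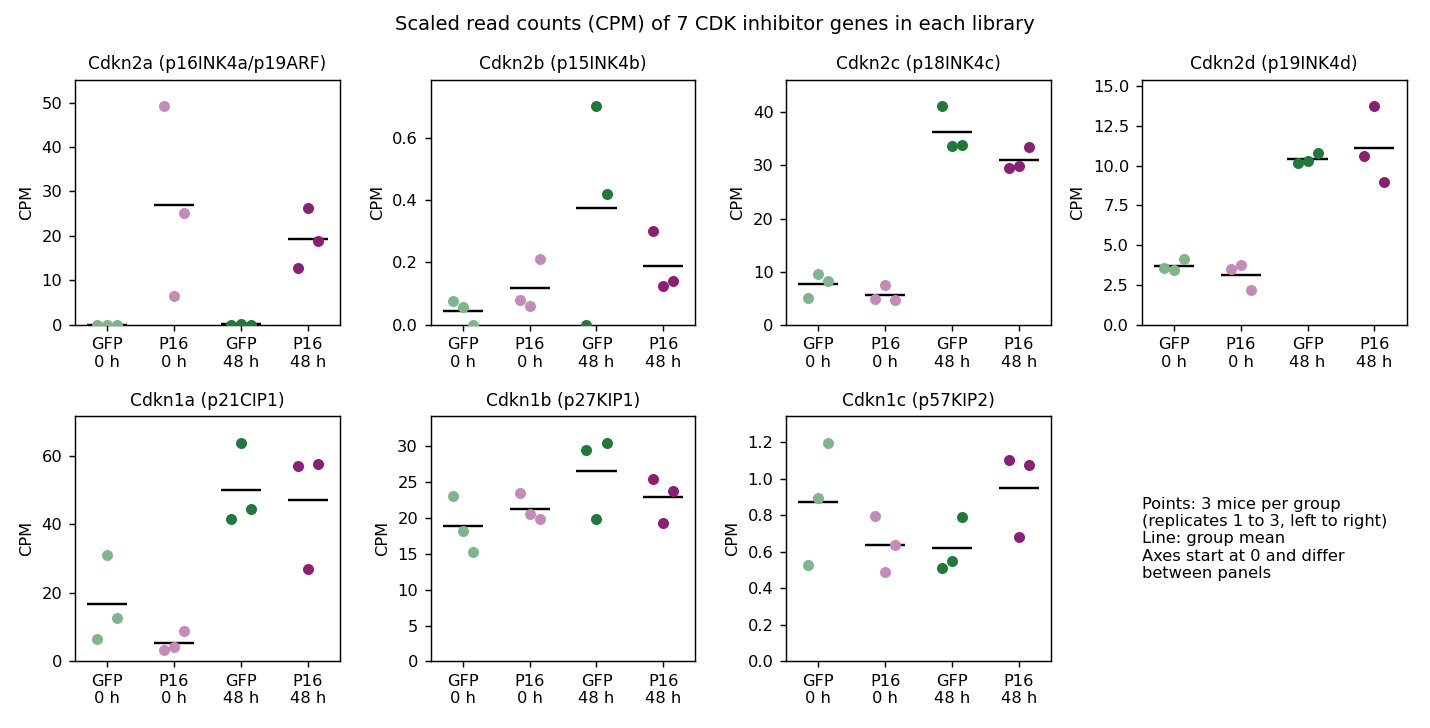
CPM (vertical axis, from 0, scale differing between panels) of each CDK inhibitor gene in the 12 libraries by group, with a line at each group mean. Cdkn2c, Cdkn2d and Cdkn1a lie higher at 48 h than at 0 h in both arms, with no overlap between the times within an arm. Of all tested genes 47.6% (GFP) and 49.5% (P16) had no such overlap in either direction. For Cdkn1a the highest resting GFP library lies above the lowest regenerating P16 library. Cdkn2a is high in the P16 libraries.

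Cdkn2a (ENSMUSG00000044303, chromosome 4, 89274471 to 89294653, minus strand, GRCm38) encodes p16INK4a and, from a different first exon and reading frame, p19ARF, which restrains the p53 inhibitor MDM2. Its 2 annotated transcripts start with exons at 89281986 to 89282192 and at 89294334 to 89294653 and were counted together, so the proteins cannot be told apart in these counts. Cdkn2a had 49.2, 6.38 and 25.1 CPM in replicates 1, 2 and 3 of the resting P16 arm, and 12.8, 26.2 and 18.7 CPM in the regenerating one. The resting GFP libraries held 0 reads of it and the regenerating ones 0, 5 and 0 reads. Every P16 library thus stood above every GFP library, as the labels have it, a separation that 14.4% of all tested genes had at 0 h and 28.2% at 48 h in one direction or the other. The P16 values spread from 6.38 to 49.2 CPM at 0 h and from 12.8 to 26.2 CPM at 48 h, so the libraries of this arm overlapped between the times (log2 fold change -0.48, SE 0.72, edgeR adjusted p = 0.645). Between the times in GFP mice and for the difference of the responses the fit gave adjusted p of 0.668 and 0.843, from changes set by the prior count.

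At 0 h the mean of 26.9 ± 21.5 CPM (SD, n = 3) in P16 mice was at least 119-fold higher than the largest floor that 3 counts give in a GFP library (0.226 CPM). From the lowest P16 library this bound was 28.3-fold, and without replicate 1, the highest, the mean of 15.8 CPM gave 69.8-fold. The comparison at 0 h did not pass (edgeR adjusted p = 0.0914), and it passed without replicate 2 of the P16 mice (adjusted p = 0.00901, range 1.79e-07 to 0.513 over all alternatives). At 48 h the mean was 19.2 ± 6.70 CPM in P16 mice against 0.0836 ± 0.145 CPM in GFP mice (log2 fold change 7.97, 95% interval 4.85 to 11.09, edgeR adjusted p = 0.0385). That call was lost when replicate 1, 2 or 3 of the GFP mice at 48 h, replicate 2 or 3 of the P16 mice at 48 h or replicate 3 of the P16 mice at 0 h was left out, with adjusted p from 0.0695 to 0.178 (range over all alternatives 8.87e-06 to 0.233). Its log2 fold change without replicate 2 of the regenerating GFP mice, the library with 5 reads, is set by the prior count and is no bound. Averaged over both times, the difference between the arms passed (9.95, SE 1.14, edgeR adjusted p = 0.0139, a value that the 0 reads of the resting GFP libraries make depend on the prior count), where 3.29% of genes did, and was lost without replicate 2 (adjusted p = 0.0674) or 3 (0.0536) of the GFP mice at 48 h (range 6.8e-14 to 0.106). In an exact permutation test that exchanged the arms within each time, the difference of 8.89 in mean log2 CPM gave p = 0.005, 2-sided, the smallest that the 400 arrangements allow. The P16 mice were given P16 on the vector, and no GFP library had more than 5 reads of Cdkn2a. It thus passed the low-count filter only through the P16 libraries. These tests between the arms describe what the design set and are no independent result about Cdkn2a.

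Cdkn2b (ENSMUSG00000073802, chromosome 4, 89306299 to 89311039, minus strand) encodes p15INK4b, an INK4 inhibitor known as a target of TGF-beta signalling in other cells, and lies 11645 bases from Cdkn2a. It had 1, 1 and 0 reads in GFP mice at 0 h, 1, 1 and 3 in P16 mice at 0 h, 0, 14 and 9 in GFP mice at 48 h, and 6, 2 and 3 in P16 mice at 48 h. With at most 14 reads in a library it was removed by the filter, and the groups overlapped in both arms. Summed over the libraries of a group, its 23 reads in GFP mice at 48 h came to 0.317 CPM, with an exact 95% Poisson interval of 0.201 to 0.475 that covers counting error only. In GFP mice at 0 h, 2 reads came to 0.0449 CPM, with an interval of 0.00543 to 0.162. In edgeR without the filter its log2 fold change between the times was 2.88 in GFP mice (SE 1.59, adjusted p = 0.213) and 0.67 in P16 mice (SE 1.47, adjusted p = 0.828). Between the arms the same fit gave 1.27 at 0 h (SE 1.68, adjusted p = 0.822) and -0.94 at 48 h (SE 1.37, adjusted p = 0.840). The exact permutation test of the times within arms gave p = 0.21, and without replicate 1 of the GFP mice at 48 h, the library with 0 reads, 0.02 (range over alternatives 0.02 to 0.43). Mtap, the enzyme gene next to this locus, had 19.3 ± 2.15 CPM at 0 h and 27.1 ± 2.62 CPM at 48 h in GFP mice, and it rose there (0.49, SE 0.14, edgeR adjusted p = 0.0115). In P16 mice Mtap had 22.0 ± 1.72 and 25.6 ± 2.80 CPM and did not pass (adjusted p = 0.239). The difference of its responses, -0.28, was not called by edgeR.

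Cdkn2c (ENSMUSG00000028551, chromosome 4, 109660876 to 109667189, minus strand) encodes p18INK4c. It had 5.04, 9.48 and 8.22 CPM in GFP mice at 0 h and 41.2, 33.8 and 33.8 CPM at 48 h. In P16 mice the values were 4.76, 7.42 and 4.74 CPM at 0 h and 29.5, 29.8 and 33.5 CPM at 48 h. All 6 regenerating libraries lay above all 6 resting ones; within an arm, 47.6% of all tested genes had no overlap between the times in GFP mice and 49.5% in P16 mice. Cdkn2c rose 4.75-fold in GFP mice (log2 fold change 2.25, SE 0.21, edgeR adjusted p = 1.44e-07) and 5.44-fold in P16 mice (2.44, SE 0.21, adjusted p = 6.58e-08). The call held under each of the 20 alternatives in both arms. The exact permutation test of the times within arms gave the smallest p it allows, 0.005, for a difference of 2.39 in mean log2 CPM.

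Between the arms, Cdkn2c at 48 h was lower in each P16 library than in any GFP library, a pattern that 28.2% of all tested genes had at 48 h in one direction or the other. The log2 fold change was -0.23, with a 95% interval of -0.63 to 0.17 (edgeR adjusted p = 0.584). At 0 h, where the libraries overlapped, it was -0.43 (interval -0.89 to 0.04, adjusted p = 0.411). Averaged over both times it was -0.33 (interval -0.63 to -0.02, adjusted p = 0.225), and the exact permutation test of the arms within times gave p = 0.09, 2-sided. Without replicate 1 of the GFP mice at 0 h that exact p was 0.035, and over all alternatives it ranged from 0.035 to 0.26.

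The windows around the 2 annotated starts of Cdkn2c are shown because its rise was the largest called among the INK4 members in both arms. The window of Cdkn2d is shown because its rise was called beside it. They run from 250 bases before to 50 after each start and are RefSeq sequences of GRCm38.p6, both genes on the minus strand and printed 5′ to 3′. Capitals mark the letters GGGCGG (a GC box) or CCAAT on either strand, and no matches overlap in these windows.
Cdkn2c, outer start, chr4:109666707-109667006: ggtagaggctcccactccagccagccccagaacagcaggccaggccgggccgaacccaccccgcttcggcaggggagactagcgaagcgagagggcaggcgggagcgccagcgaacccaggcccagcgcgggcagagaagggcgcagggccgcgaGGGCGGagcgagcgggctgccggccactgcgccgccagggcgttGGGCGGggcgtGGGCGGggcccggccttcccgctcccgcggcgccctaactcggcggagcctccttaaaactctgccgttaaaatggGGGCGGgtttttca
Cdkn2c, inner start, chr4:109665323-109665622: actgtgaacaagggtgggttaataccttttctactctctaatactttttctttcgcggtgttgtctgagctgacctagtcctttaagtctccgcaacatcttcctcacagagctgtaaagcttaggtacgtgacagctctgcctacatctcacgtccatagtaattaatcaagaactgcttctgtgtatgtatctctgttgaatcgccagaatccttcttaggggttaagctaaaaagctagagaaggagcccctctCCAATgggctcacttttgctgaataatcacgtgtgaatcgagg
Cdkn2d, chr9:21291160-21291459: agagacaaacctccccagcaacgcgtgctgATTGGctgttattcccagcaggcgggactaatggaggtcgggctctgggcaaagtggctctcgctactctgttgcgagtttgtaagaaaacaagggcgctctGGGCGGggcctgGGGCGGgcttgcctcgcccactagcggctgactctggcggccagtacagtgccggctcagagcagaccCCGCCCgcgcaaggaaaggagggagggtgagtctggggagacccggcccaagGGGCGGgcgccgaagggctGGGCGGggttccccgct
The outer window of Cdkn2c held 4 GC boxes, the inner one 1 CCAAT, and the window of Cdkn2d held 5 GC boxes and 1 CCAAT. Over 32851 RefSeq windows of the same length, 35.66% held a GC box and 37.41% a CCAAT. The E2F letters TTTCCCGC, TTTGGCGC, TTTCGCGC or TTTGCCGC, found in 2.26% of windows, and the cell cycle homology letters TTTGAA, found in 17.89%, were not in these 3 windows on either strand. The counts are per gene and do not say from which start the reads came.

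Cdkn2d (ENSMUSG00000096472, chromosome 9, 21288410 to 21291407, minus strand) encodes p19INK4d, a different protein from p19ARF. It had 3.54, 3.46 and 4.11 CPM in GFP mice at 0 h and 10.2, 10.3 and 10.8 CPM at 48 h. In P16 mice it had 3.49, 3.77 and 2.19 CPM at 0 h and 10.6, 13.7 and 8.95 CPM at 48 h. The times did not overlap in either arm, as for 47.6% of all tested genes in GFP mice and 49.5% in P16 mice. The GFP mice at 48 h lay within 1 CPM of each other. Cdkn2d rose 2.82-fold in GFP mice (log2 fold change 1.49, SE 0.23, edgeR adjusted p = 6.87e-05) and 3.50-fold in P16 mice (1.81, SE 0.24, adjusted p = 8.87e-06), again under each of the 20 alternatives. Between the arms it overlapped at both times, with a log2 fold change of -0.23 at 0 h (interval -0.75 to 0.30, edgeR adjusted p = 0.741) and 0.09 at 48 h (interval -0.37 to 0.54, adjusted p = 0.883). The sign at 48 h turned to -0.10 when P16 replicate 2 of 48 h was left out.

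Cdkn1a (ENSMUSG00000023067, chromosome 17, 29090976 to 29100727, plus strand) encodes p21CIP1, the best known CDK inhibitor target of p53. The windows at its 2 RefSeq starts, plus strand, are shown because the upstream one holds a p53 match. Capitals mark the match to the p53 consensus decamer pair without spacer (at most 1 mismatch) in the first and GGGCGG in the second, with no overlaps.
Cdkn1a, upstream start, chr17:29090729-29091028: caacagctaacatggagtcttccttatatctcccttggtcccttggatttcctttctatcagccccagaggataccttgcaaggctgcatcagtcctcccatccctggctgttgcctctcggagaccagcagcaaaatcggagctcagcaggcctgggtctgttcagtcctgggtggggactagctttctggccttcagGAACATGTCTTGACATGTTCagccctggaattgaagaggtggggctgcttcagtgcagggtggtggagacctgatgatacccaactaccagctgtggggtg
Cdkn1a, downstream start, chr17:29093519-29093818: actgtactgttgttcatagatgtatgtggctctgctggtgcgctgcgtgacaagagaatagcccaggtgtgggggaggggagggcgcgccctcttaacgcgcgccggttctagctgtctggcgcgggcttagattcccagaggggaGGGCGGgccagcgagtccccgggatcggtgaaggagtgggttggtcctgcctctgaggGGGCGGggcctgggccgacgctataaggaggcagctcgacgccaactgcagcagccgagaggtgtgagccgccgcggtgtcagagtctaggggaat
The p53 match, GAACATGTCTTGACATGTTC, covers bases 200 to 219 of the upstream window, 51 to 32 bases before the start. Of the 32851 windows 29 (0.09%) held such a match. No other member window held one, and the downstream window held 2 GC boxes.

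Cdkn1a varied more between mice than the other endogenous members above 1 CPM. In GFP mice it had 6.55, 31.0 and 12.8 CPM at 0 h and 41.5, 63.8 and 44.6 CPM at 48 h. In P16 mice it had 3.25, 4.32 and 8.92 CPM at 0 h and 57.2, 26.9 and 57.5 CPM at 48 h. No resting library reached a regenerating one in its own arm, although replicate 2 of the GFP mice at 0 h stood above replicate 2 of the P16 mice at 48 h. Of all tested genes, 47.6% in GFP mice and 49.5% in P16 mice had no overlap between the times in one direction or the other. In P16 mice Cdkn1a rose 8.57-fold (log2 fold change 3.10, SE 0.64, edgeR adjusted p = 0.00491), under each of the 20 alternatives. In GFP mice, whose resting libraries averaged 16.8 ± 12.7 CPM, the difference did not pass (1.56, SE 0.57, interval 0.24 to 2.87, adjusted p = 0.0693). The exact permutation test of the times within arms gave 0.005 for a difference of 2.49 in mean log2 CPM.

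The GFP result for Cdkn1a rests on replicate 2 at 0 h, the library with the high Saa1. Without it the log2 fold change was 2.37 (edgeR adjusted p = 0.0122, range over the alternatives 0.00657 to 0.184), and 2.36 when P16 replicate 2 of 48 h was left out as well (adjusted p = 0.00657). The comparison also passed with DESeq2 (1.57, adjusted p = 0.0288), limma-voom (1.74, 0.0369) and unscaled library sizes (2.04, 0.0250). Between the arms at 0 h Cdkn1a was 3.08-fold lower in P16 mice without passing (log2 fold change -1.62, interval -3.07 to -0.18, adjusted p = 0.322), and the groups overlapped. Without replicate 2 of the GFP mice at 0 h this was -0.81 (adjusted p = 0.697, range over the alternatives 0.132 to 0.697). The 13 macrophage markers summed to 43.1, 216 and 102 CPM in GFP mice at 0 h, in the same order of libraries as Cdkn1a. In P16 mice at 0 h they summed to 32.0, 48.0 and 32.6 CPM, in another order than Cdkn1a. Of these 13, edgeR called 1 lower in P16 mice at 0 h, where 0.22% of all tested genes were called. At an unadjusted p under 0.05 it had 12 of them, beside 1652 of all 12257 tested genes. Their median log2 fold change was -1.67, and none was at 0 in all libraries. The 10 sinusoidal endothelial markers summed to 73.8, 134 and 77.8 CPM in GFP mice at 0 h and to 56.6, 63.6 and 60.3 CPM in P16 mice at 0 h, without overlap. Of single tested genes 14.4% had no overlap between the arms at 0 h in one direction or the other. Of the 10 endothelial markers none was called, with 5 at an unadjusted p under 0.05 and a median of -0.65. At 48 h the macrophage sums ran from 45.1 to 105 CPM (GFP) and from 69.3 to 91.1 CPM (P16). Replicate 2 had the highest sum in both arms, with the highest Cdkn1a of its group in GFP mice and the lowest in P16 mice. The part of these cells or of the acute phase state in the Cdkn1a values was not tested, and in bulk samples fewer cells of a type and less RNA per cell cannot be told apart.

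At 48 h Cdkn1a in the arms overlapped, with a log2 fold change of -0.08 and an interval of -1.33 to 1.17 (edgeR adjusted p = 0.966), which turned to 0.20 without P16 replicate 2 and to 0.13 without GFP replicate 2 of that time. Cdkn1a shares 273 exon bases with AC167363.2 on the opposite strand, and the strand setting of the counts was not given in the sources used here. Its reads could thus lack or include some of that gene's.

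Cdkn1b (ENSMUSG00000003031, chromosome 6, 134920401 to 134925513, plus strand) encodes p27KIP1, whose level in dividing cells is known to be set largely by SKP2-driven degradation. It had 23.1, 18.2 and 15.3 CPM in GFP mice at 0 h and 29.6, 19.8 and 30.5 CPM at 48 h. In P16 mice it had 23.4, 20.6 and 19.8 CPM at 0 h and 25.5, 19.3 and 23.8 CPM at 48 h. All 4 groups overlapped. In GFP mice Cdkn1b rose 1.41-fold (log2 fold change 0.50, SE 0.18, interval 0.12 to 0.88, edgeR adjusted p = 0.0416). That call was lost in 7 of 20 alternatives: without replicate 2 (adjusted p = 0.0806) or 3 (0.176) of the GFP mice at 0 h, without replicate 1 (0.148) or 3 (0.171) at 48 h, without P16 replicate 3 of 48 h (0.0513), without both libraries of high Saa1 (0.0678), and in a fit of the GFP groups alone (0.0795). In P16 mice the change was 0.11 (interval -0.27 to 0.49, adjusted p = 0.675). The difference between these responses was -0.39 (interval -0.93 to 0.15, adjusted p = 0.595). The arms differed by 0.17 at 0 h (interval -0.22 to 0.56) and by -0.22 at 48 h (interval -0.59 to 0.16), with edgeR adjusted p of 0.733 and 0.578.

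Cdkn1c (ENSMUSG00000037664, chromosome 7, 143458339 to 143461050, minus strand) encodes p57KIP2 and is an imprinted gene. It had 7, 16 and 16 reads in GFP mice at 0 h, 10, 8 and 9 in P16 mice at 0 h, 16, 11 and 17 in GFP mice at 48 h, and 22, 11 and 23 in P16 mice at 48 h. These came to 0.486 to 1.20 CPM over all libraries, and all groups overlapped. Between the times the log2 fold change was -0.50 in GFP mice (interval -1.66 to 0.66) and 0.59 in P16 mice (interval -0.59 to 1.76), with edgeR adjusted p of 0.529 and 0.436. Between the arms it was -0.46 at 0 h (interval -1.66 to 0.75) and 0.63 at 48 h (interval -0.50 to 1.76), with edgeR adjusted p of 0.780 and 0.601. Its antisense neighbour Gm44732 shares 625 of its exon bases, so some reads may belong to either. Of 7 tested genes of the same imprinted domain, 1 rose and 1 fell in each arm, a share below the 33.6% (GFP) and 38.6% (P16) of all genes and no result about this list. Phlda2, a placental growth restraint, rose from 0.162 to 2.46 CPM in GFP mice (3.90, SE 0.62, edgeR adjusted p = 9.12e-05) and from 0.114 to 2.10 CPM in P16 mice (4.10, SE 0.66, adjusted p = 8.26e-05). Slc22a18, a transporter gene, fell by 0.44 on the log2 scale in GFP mice (SE 0.13, adjusted p = 0.0144) and by 0.45 in P16 mice (SE 0.13, adjusted p = 0.0107).

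**Figure D2:**
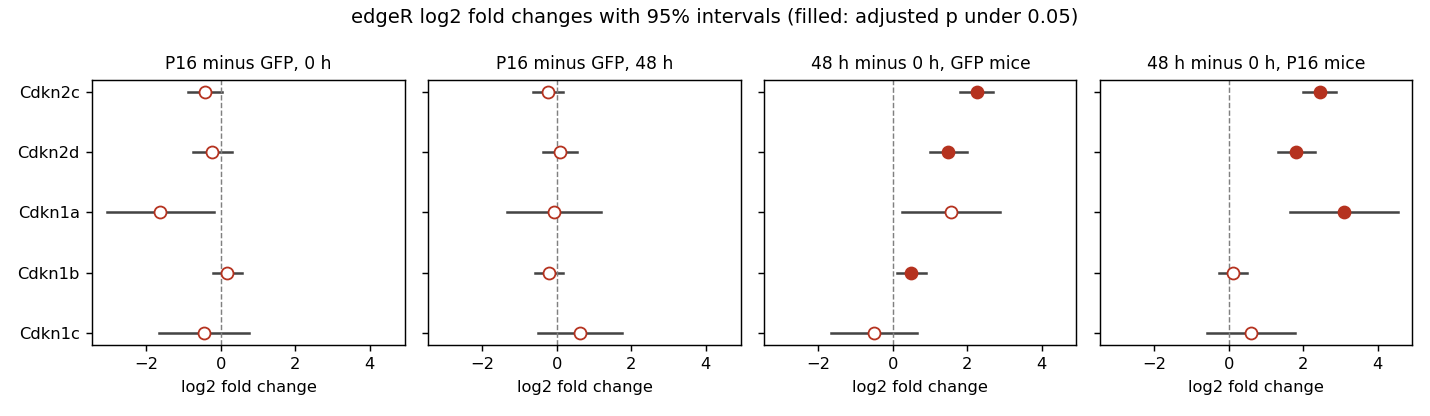
edgeR log2 fold changes of 5 members (horizontal axis) with 95% intervals in the 4 comparisons of groups, filled where the adjusted p is under 0.05. Cdkn2c and Cdkn2d are filled in both comparisons of the times, Cdkn1a in P16 mice and Cdkn1b in GFP mice, and none of the 5 between the arms. Cdkn2a and Cdkn2b are not drawn.

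Whether the response to hepatectomy differed between the arms was tested as an interaction in the same edgeR fit. None of the 6 members passed, at an unadjusted p under 0.05 there were 0 as well, and DESeq2 and limma-voom also called 0, where edgeR called 0.0979% of all genes. The largest difference among the members above 1 CPM in all groups was that of Cdkn1a, 1.54 (interval -0.37 to 3.46, adjusted p = 0.527), which was 0.73 without replicate 2 of the GFP mice at 0 h. Cdkn2c differed by 0.20 (interval -0.41 to 0.81), and the value was -0.01 without that same library. Cdkn2d differed by 0.31 (SE 0.33, adjusted p = 0.774) and Cdkn1c by 1.09 (SE 0.79, adjusted p = 0.647). The comparisons of times and of arms share libraries and are not independent of each other.

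Scaling bears on these values. TMM factors ran from 0.825 to 0.923 at 0 h and from 0.946 to 1.23 at 48 h. Without them the median log2 fold change of all genes between the times moved to 0.49 in GFP and 0.25 in P16 mice. Between the arms at 48 h that median moved to -0.22 and for the interaction to -0.25. The 3 member values whose sign turned without TMM lay near 0 on that scale: Cdkn2d between the arms at 48 h (-0.15), Cdkn1c between the times in GFP mice (0.0040) and the interaction of Cdkn2c (-0.051). Relative to the shifted medians all 3 had the sign they had with TMM.

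Per length of exon, the members could be set side by side within a group. In GFP mice at 0 h Cdkn1a (4.72 ± 3.57 RPKM, SD, n = 3), Cdkn1b (4.15 ± 0.864), Cdkn2c (2.82 ± 0.852) and Cdkn2d (2.35 ± 0.226) followed each other with overlapping libraries at each step. Without replicate 2, the library with the high Saa1, the order of the first pair turned, with Cdkn1b at 4.22 and Cdkn1a at 2.72 RPKM. Cdkn1c came below them without overlap (0.428 ± 0.164 RPKM), then Cdkn2b (0.0314 ± 0.0281), and Cdkn2a was at 0 reads. In P16 mice at 0 h Cdkn2a led with 23.0 ± 18.3 RPKM, its lowest library still above the highest of Cdkn1b (4.67 ± 0.416 RPKM). Cdkn2c (2.10 ± 0.572), Cdkn2d (2.00 ± 0.534) and Cdkn1a (1.55 ± 0.847 RPKM) overlapped below it.

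At 48 h in GFP mice the order began with Cdkn1a (14.1 ± 3.41 RPKM) and Cdkn2c (13.5 ± 1.59), which overlapped, then Cdkn2d (6.62 ± 0.213) and Cdkn1b (5.85 ± 1.30), which overlapped too. In P16 mice at 48 h Cdkn2a (16.4 ± 5.72 RPKM), Cdkn1a (13.3 ± 4.95) and Cdkn2c (11.5 ± 0.840) overlapped in turn, and Cdkn2d (7.05 ± 1.54) lay above Cdkn1b (5.03 ± 0.696) without overlap. When P16 replicate 2 of 48 h was left out, Cdkn1a (16.1 RPKM) came before Cdkn2a (13.5 RPKM), with no overlap between the 2 libraries left of each. Cdkn1c and Cdkn2b stayed under 0.6 RPKM in all libraries. The union of exons of Cdkn1a is 3553 bases and its longest transcript 2080, so its RPKM depends on the length used: with the longest transcript of each gene, P16 mice at 0 h had Cdkn1a (2.64 RPKM) before Cdkn2c (2.28) and Cdkn2d (2.21), and at 48 h Cdkn1a (22.7) before Cdkn2a (21.5), all with overlapping libraries. In GFP mice at 48 h Cdkn1a (24.0) then no longer overlapped Cdkn2c (14.7). The P16 sequence of the vector was not given in the sources used here, so which part of the Cdkn2a exons its reads can cover, and the length that belongs to them, are not known. The rank and share of Cdkn2a hold only for the reads counted on the mouse gene.

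**Figure D3:**
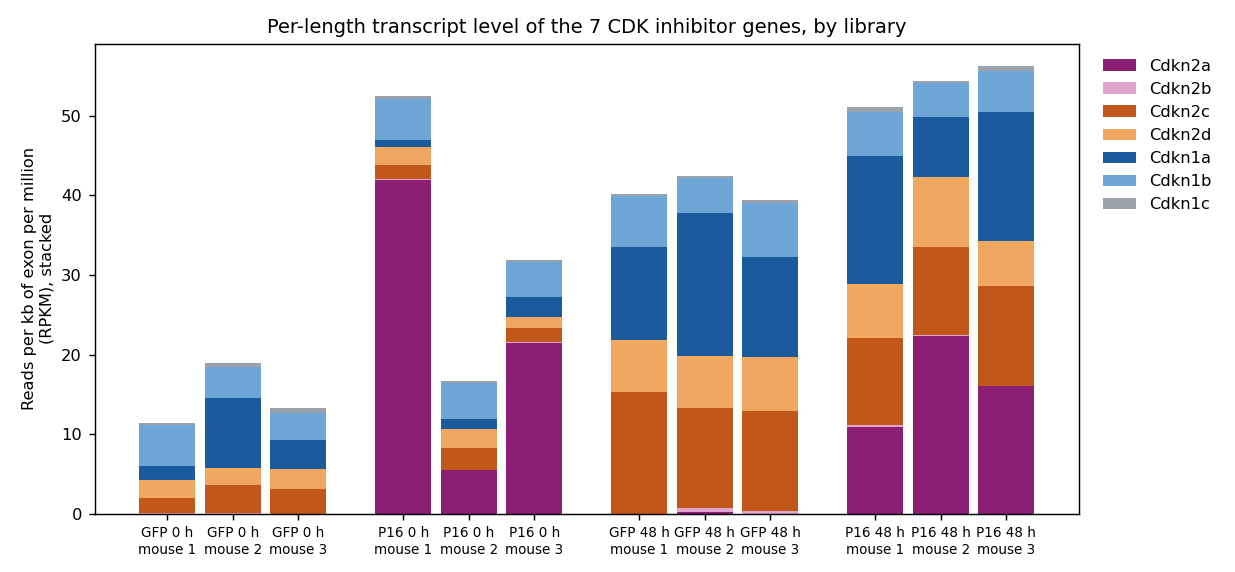
RPKM of the 7 CDK inhibitor genes (vertical axis, stacked) in each of the 12 libraries. Without Cdkn2a the stacks reach 10.5 to 18.9 RPKM at 0 h and 32.1 to 42.2 RPKM at 48 h, and Cdkn2a makes up 32.8 to 80.0% of the P16 stacks at 0 h.

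Summed over the members other than Cdkn2a, the RPKM was 14.5 ± 3.94 in GFP and 10.7 ± 0.395 in P16 mice at 0 h, and 40.6 ± 1.44 and 37.5 ± 4.69 at 48 h. Without the 2 libraries of high Saa1 the GFP sum at 0 h was 12.3 and the P16 sum at 48 h 40.2. The sum of Cdkn2b, Cdkn2c and Cdkn2d was 3.31 to 5.77 RPKM over the 6 resting libraries and 17.9 to 21.8 over the 6 regenerating ones. The CIP/KIP sum was 5.98 to 13.2 RPKM at 0 h and 12.1 to 22.6 at 48 h, with no overlap within an arm; across the arms the highest resting library (GFP replicate 2) was above the lowest regenerating one (P16 replicate 2). Cdkn2a took 80.0, 32.8 and 67.1% of the summed level of all 7 in the P16 mice at 0 h and 21.4, 41.1 and 28.5% at 48 h. Its share was below 1% in every GFP library. In all 4 groups Cdk4, the kinase bound by INK4 proteins, was above Cdk6, with 8.37 ± 0.689, 7.71 ± 0.891, 11.6 ± 1.37 and 8.95 ± 0.477 RPKM in GFP and P16 mice at 0 h and GFP and P16 mice at 48 h. Cdk6 was at 0.855 to 1.15 RPKM in group means. The size of this gap depends on the exon lengths used. In CPM the group means ran from 25.1 to 37.6 for Cdk4 and from 12.0 to 16.1 for Cdk6.

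Of the 5 genes for D cyclins, Cdk4 and Cdk6, 2 rose in GFP mice and 1 in P16 mice after hepatectomy. Of all tested genes 17.2% and 19.6% were called higher there, so the P16 count is near that share and no result about the list. At 48 h the P16 arm had 1 of the 5 lower than the GFP arm, where 2.28% of all tested genes were called in either direction. Ccnd1 (cyclin D1) rose from 2.79 ± 0.969 to 55.1 ± 7.61 CPM in GFP mice (log2 fold change 4.32, SE 0.23, edgeR adjusted p = 1.24e-10) and from 2.60 ± 0.759 to 29.2 ± 4.70 CPM in P16 mice (3.47, SE 0.23, adjusted p = 1.94e-09). At 48 h it was 1.88-fold lower in P16 mice (-0.91, SE 0.19, adjusted p = 0.0223). Cdk4 rose in GFP mice (0.47, SE 0.13, adjusted p = 0.0112) and did not pass in P16 mice (0.21, adjusted p = 0.224). Of the 3 pocket proteins, Rbl1 (p107) rose in both arms (3.06, SE 0.29, adjusted p = 2.32e-07, and 3.49, SE 0.30, adjusted p = 5.98e-08). Rb1 (-0.66, adjusted p = 0.0418) and Rbl2 (-0.89, adjusted p = 0.000991) fell in P16 mice, and in GFP mice they were at -0.32 (adjusted p = 0.322) and -0.46 (adjusted p = 0.0612). For the difference of the responses edgeR called none of these 5 and 3 genes, with 2 and 0 at an unadjusted p under 0.05. That was beside 1451 of all 12257 tested genes. There Ccnd1 was at -0.85 (adjusted p = 0.304) and Rbl2 at -0.43 (adjusted p = 0.551).

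Among the 10 cyclins and kinases that CIP/KIP proteins bind or that activate these complexes, 8 rose in GFP and 6 in P16 mice and none fell. Of all tested genes 17.2% were called higher in GFP and 19.6% in P16 mice. Cdk1 rose from 1.59 to 66.1 CPM in GFP mice (5.33, SE 0.28, edgeR adjusted p = 1.57e-09) and from 1.05 to 97.4 CPM in P16 mice (6.51, SE 0.30, adjusted p = 3.00e-10). Ccnb2 (cyclin B2) rose by 7.43 and 7.13 and Ccna2 (cyclin A2) by 6.15 and 6.62 on the log2 scale in GFP and P16 mice. All 5 genes for the kinases and phosphatases that set the inhibitory phosphates of CDKs rose in both arms, such as Wee1, an inhibitory kinase (3.46, adjusted p = 1.17e-05, and 2.45, adjusted p = 0.000167), and Cdc25b, an activating phosphatase (5.14, adjusted p = 1.02e-07, and 4.42, adjusted p = 1.38e-07). The median log2 fold change of the 10 was 3.10 in GFP and 2.58 in P16 mice and that of the 5 was 5.12 and 4.42, beside -0.01 and 0.00 over all genes. Neither list had a gene called by edgeR between the arms at 48 h, with 1 and 0 at an unadjusted p under 0.05, beside 2142 of all 12257 tested genes. Of 17 proliferation genes 16 rose in each arm, and none was called between the arms at 48 h, with 0 at an unadjusted p under 0.05. At 0 h, where 0.22% of all tested genes were called, 1 of the 17 was called lower in P16 mice, Top2a, a DNA topoisomerase (0.705 against 0.0265 CPM, edgeR adjusted p = 0.0311). There were 7 at an unadjusted p under 0.05, beside 1652 of all 12257 tested genes. Averaged over both times 4 were called lower, Aurkb, Top2a, Plk1 and Mki67, with edgeR adjusted p of 0.0305, 0.0148, 0.0349 and 0.0421, where 3.29% of all tested genes were called. The median log2 fold change of the 17 between the arms was -0.29 at 0 h and -0.01 at 48 h. Top2a at 0 h was near the floor of counts. The averaged calls are thus no result for 48 h.

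**Figure D4:**
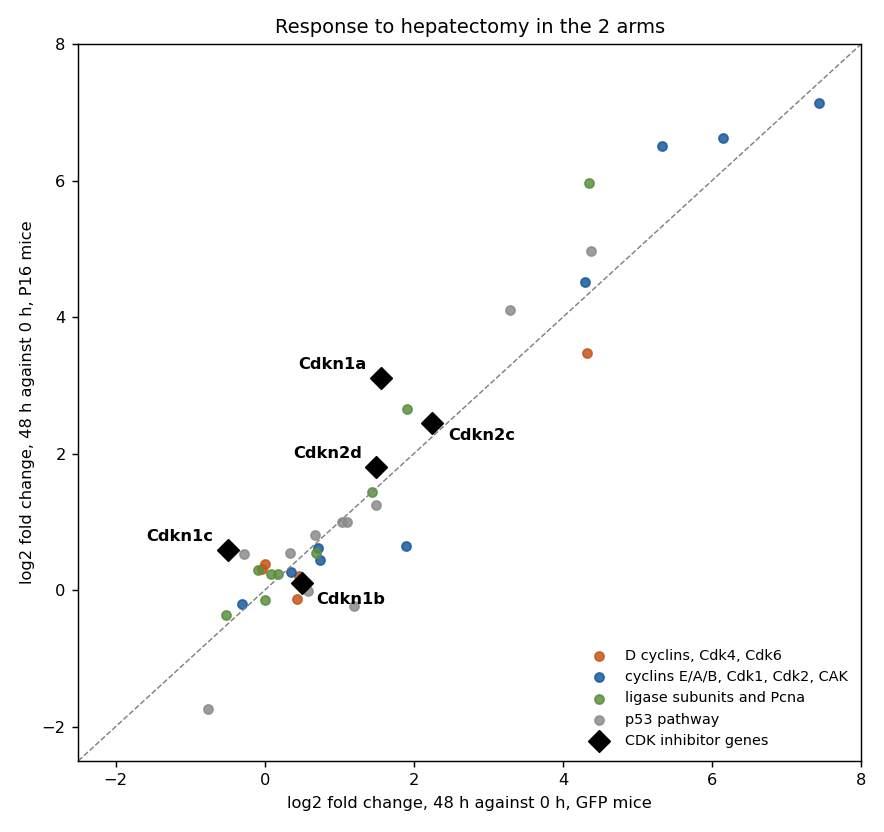
log2 fold change at 48 h against 0 h in GFP mice (horizontal axis) and in P16 mice (vertical axis) for 5 CDK inhibitor genes and the genes of 4 lists, with a dashed line of equal change. Cdkn2c and Cdkn2d lie near the line, and Cdkn1a above it at 1.56 and 3.10. Cdkn2a, Cdkn2b and 1 list gene with 3 or fewer reads in a whole group are not drawn.

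The genes for the ligases that degrade CIP/KIP proteins were read beside their targets. Of 10 tested ligase subunits and Pcna, 5 rose and 1 fell in each arm. Of all tested genes 17.2% (GFP) and 19.6% (P16) were called higher and 16.4% and 19% lower. Skp2, the F-box protein that binds p27, rose in both arms (1.44, SE 0.38, edgeR adjusted p = 0.00727 in GFP and 1.44, SE 0.41, adjusted p = 0.00987 in P16 mice), as did its cofactor Cks1b (1.90, adjusted p = 7.48e-06, and 2.65, adjusted p = 1.75e-07). Dtl, the adaptor of the ligase that removes p21 during S phase, rose by 4.34 (adjusted p = 1.36e-06) and 5.97 (adjusted p = 5.43e-07). Pcna, the clamp it needs, rose 2.83-fold (adjusted p = 4.06e-06) and 3.40-fold (adjusted p = 5.71e-07). These are transcripts, and no protein was measured here.

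Of 12 genes of the p53 pathway, 8 rose in GFP mice, and in P16 mice 7 rose and 1 fell. Of all tested genes 17.2% (GFP) and 19.6% (P16) were called higher, and 19% were called lower in P16 mice. The p53 targets Phlda3, an inhibitor of AKT, Eda2r, a receptor of the TNF family, and Zmat3, an RNA-binding protein, rose 20.7-fold, 9.80-fold and 2.82-fold in GFP mice (edgeR adjusted p = 6.68e-08, 0.000197 and 3.16e-05). In P16 mice they rose 31.2-fold, 17.1-fold and 2.36-fold (adjusted p = 6.10e-08, 6.96e-05 and 0.000227). Mdm2, the ligase of p53 and itself a target, rose by 1.11 (adjusted p = 0.000252) and 1.00 (adjusted p = 0.000547). Bbc3, the p53 target PUMA, fell in P16 mice (-1.75, SE 0.32, adjusted p = 0.000778). Trp53 itself rose by 0.53 in GFP mice (adjusted p = 0.0207) and had 0.07 in P16 mice (adjusted p = 0.786). For the difference of the responses edgeR called none of the 12, with 2 at an unadjusted p under 0.05, beside 1451 of all 12257 tested genes. Between the arms at 0 h, 1 of the 12 was called, where 0.22% of all tested genes were. This was Gdf15, a stress hormone, 3.75-fold higher in P16 mice (37.2 ± 18.8 against 139 ± 35.1 CPM, edgeR adjusted p = 0.0358). Cdkn1a in the same libraries had 16.8 ± 12.7 and 5.50 ± 3.01 CPM. At 48 h none of the 12 was called between the arms by edgeR, with 2 at an unadjusted p under 0.05, beside 2142 of all 12257 tested genes.

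Among 17 other transcription factors known to act on Cdkn1a or Cdkn1b, 2 rose and 2 fell in GFP mice, and 2 rose and 8 fell in P16 mice, where 16.4% and 19% of all genes were called lower. The 4 called in GFP mice are a smaller share than the 33.6% of all genes. Klf6, which activates Cdkn1a in other cells, rose 5.64-fold in GFP mice (SE 0.57 on the log2 scale, edgeR adjusted p = 0.00881) and 2.96-fold in P16 mice (SE 0.53, adjusted p = 0.0432). At 48 h 3 of the 17 were lower in P16 than in GFP mice, where 2.28% of all tested genes were called in either direction. These were Ppara, a regulator of lipid use (-0.79, SE 0.19, edgeR adjusted p = 0.0373), Foxo3 (-0.68, SE 0.18, adjusted p = 0.0469), which activates Cdkn1b, and Cebpa (-0.65, SE 0.15, adjusted p = 0.0355), whose product stabilises p21 in the liver. Of 22 Polycomb and other regulators of the Ink4/Arf locus, 4 rose and 2 fell in GFP mice, and 5 rose and 6 fell in P16 mice. Of all tested genes 33.6% (GFP) and 38.6% (P16) were called in either direction, in P16 mice 19.6% higher and 19% lower. For GFP mice the count is a share below that of all genes, and nothing about the list is read from either count. Ezh2, the Polycomb methyltransferase, rose (2.64, adjusted p = 3.09e-06, and 2.02, adjusted p = 3.43e-05), and Cbx7, a Polycomb reader, fell (-1.25, adjusted p = 0.00499, and -1.93, adjusted p = 0.00018). None of the 22 was called between the arms at 48 h by edgeR, with 5 at an unadjusted p under 0.05, beside 2142 of all 12257 tested genes.

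Genes with the most alike profile were sought for each tested member over the 12 libraries, among 8468 genes of at least 5 CPM, by Pearson's r of log2 CPM. For Cdkn2c these were Ckap2l (r = 0.992), Aurka (0.991) and Smtn (0.988), of which the first pair encode a spindle protein and a mitotic kinase. For Cdkn2d they were Ncaph (0.983), Mybl1 (0.978) and Mcm6 (0.975), a condensin subunit, a MYB factor and a replication helicase subunit. For Cdkn1a they were Ppp2r2a (0.978), Nomo1 (0.971) and Sept11 (0.970). For Cdkn1b the highest was Prpf19 at 0.867, for Cdkn1c Brpf1 at 0.812 and for Cdkn2a Ubb at 0.932. Among the members Cdkn2c went with Cdkn2d (r = 0.953) and with Cdkn1a (0.893), and Cdkn1b with Cdkn2c at 0.459. The 12 points fall into 2 times and share their libraries, and for Cdkn2c, Cdkn2d and Cdkn1a the values carry the step between the times. Those of Cdkn2a carry the step between the arms that the design set, with GFP values at or near the prior count. Cdkn3, a phosphatase gene whose name is alike but which is of neither family, went from 0.0809 ± 0.0838 to 44.6 ± 6.85 CPM in GFP mice and from 0.0810 ± 0.140 to 41.2 ± 7.87 CPM in P16 mice, and it rose in both (edgeR adjusted p = 9.22e-11 and 1.12e-10).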

How the data were processed

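Hepatocyte RNA of 12 mice (4 groups of 3) was analysed from the authors' deposited counts, whole-number reads per gene and library with no normalization. HTSeq, Picard, SAMtools, STAR 2.5.0c and Trim Galore are named in the submitters' processing notes, with mm10 as the build. Settings, annotation release and strand were not given in the sources used here. The labels gave the groups, and all table columns were mapped. Reads outside annotated genes (3.62 to 9.80% of a library) and ambiguous reads (4.87 to 8.80%) stayed out of library sizes and tests.

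The main test was edgeR 4.0.16 (R 4.3.3): TMM scaling, filterByExpr, robust quasi-likelihood F test on 4 group means of all 12 libraries, Benjamini-Hochberg adjustment over 12257 genes, threshold 0.05. The SE was taken from the change and its F statistic. For the exact tests, mean log2 CPM (prior count 0.5) was exchanged within strata, 14 tests over the 7 members, p unadjusted. RPKM was computed from the counts with union exon lengths of GENCODE vM21, which also gave positions. Promoter windows came from RefSeq, which had them for all members but Cdkn1c. The scripts were tested on simulated data. DESeq2 1.42.0, limma-voom 3.58.1, other scaling, no filter, subsets of groups, a replicate block and leaving out each library were alternatives.

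Replicates of a group differed by more than counting noise. All members are reported, Cdkn2b from reads and the fit without the filter. From each list, up to 4 called genes with the largest change could be named, or the 2 of lowest p where none was called; Mdm2, Trp53 and a few values beside these were chosen after their values were seen. For patterns, the 3 genes of highest r were named, with 1 for Cdkn1b, Cdkn1c and Cdkn2a. Members and lists were chosen with earlier results of these data known.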

Additional observations from a re-analysis of the deposited data

How the results depend on the processing

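Of the member calls after hepatectomy, those of Cdkn2c and Cdkn2d in both arms and of Cdkn1a in P16 mice held under each of 20 alternatives. Leaving out 1 library at a time, the log2 fold change ran from 2.04 to 2.45 (GFP) and 2.33 to 2.70 (P16) for Cdkn2c, from 1.45 to 1.57 and 1.60 to 1.97 for Cdkn2d, from 1.18 to 2.37 and 2.85 to 3.63 for Cdkn1a, and for Cdkn1b in GFP mice from 0.37 to 0.67. Cdkn1b in GFP mice was 0.49 and no longer passed in a fit of those groups alone, and 0.47 without both libraries of high Saa1, an alternative chosen after seeing the data, as were unscaled library sizes in edgeR. The number of members called with 1 library left out was 0 to 1 at 0 h, 0 to 1 at 48 h and 0 to 1 averaged over the times, in each case by Cdkn2a, and 2 to 3 between the times in GFP mice. DESeq2 called 1 member at 0 h. At 48 h limma-voom called 0 (Cdkn2a 8.60, adjusted p = 0.233), as did the fit without both libraries of high Saa1 (7.69, 0.0990). Averaged over the times limma-voom called 0 (8.86, 0.106). With 1 library left out Cdkn2a ran from 7.22 to 11.44 at 48 h and from 9.53 to 11.67 averaged over the times. Without replicate 2 of the GFP mice at 48 h it had no reads at either time in GFP mice and gave no value for that response. The causes were not tested.

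Deviations of same-numbered mice, taken over all genes, correlated at -0.048 to 0.061, with none of 18 pairs over 0.1. This check cannot exclude a pairing that acts on few genes, and the labels do not say what the replicate numbers mark. With the replicate block Cdkn2a was 8.10 at 48 h (adjusted p = 0.101, 0 members called) and 9.94 averaged over the times (0.0531, 0 called), the genes called were 150 in place of 280, 206 in place of 403 and, for the interaction, 44 in place of 12, and no other member call changed.

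Signs turned for small differences that passed no test. Without both libraries of high Saa1, Cdkn1a at 48 h between the arms was 0.20, Cdkn2d -0.10 and Cdkn1b averaged over the times 0.0092. Without TMM scaling, which moved the median of all genes to -0.22, 0.49 and -0.25 in these comparisons, Cdkn2d at 48 h between the arms was -0.15, Cdkn1c in GFP mice 0.0040 and the Cdkn2c interaction -0.051. With 1 library left out the ranges crossed 0 for Cdkn1a (-0.25 to 0.20) and Cdkn2d (-0.10 to 0.22) at 48 h between the arms, Cdkn2a between the times in P16 mice (-0.95 to 0.29), the Cdkn2c interaction (-0.011 to 0.45), and, averaged over the times, Cdkn1b (-0.11 to 0.062), Cdkn1c (-0.037 to 0.22) and Cdkn2d (-0.17 to 0.034). In the exact permutation tests of the arms the same held for Cdkn1b (-0.11 to 0.071, and 0.044 without both libraries of high Saa1), Cdkn1c (-0.053 to 0.23), Cdkn2d (-0.18 to 0.022) and Cdkn2b (-0.20 to 0.98), and in those of the times for Cdkn1c (-0.10 to 0.19) and Cdkn2a (-0.055 to 0.83). The exact p of the times for Cdkn1b, 0.095, was 0.04 when P16 replicate 2 of 48 h was left out and 0.01 without TMM scaling, where that for the arms of Cdkn2c was 0.04.

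Over all genes, the number called ranged from 5 to 214 at 0 h, 10 to 752 at 48 h, 3011 to 6197 and 3885 to 5167 between the times in GFP and P16 mice, 2 to 225 for the interaction and 105 to 789 averaged over the times. Counts between the arms moved by larger factors than those between the times. Depth limits Cdkn2b and Cdkn1c, with at most 14 and 23 reads in a library.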
